A study of Mus musculus with 8 samples.

Results

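The genes Mir322, Mir503, Mir351 and Mir542 are 4 microRNA (miRNA) genes that lie within one stretch of the mouse X chromosome. They were followed through small RNA libraries of spleen B cells and of the RNA bound to AGO2, the Argonaute protein that carries miRNAs to their targets. They were taken as the rows of the deposited count tables whose coordinates match these RefSeq genes, and all 4 had counts, of 2202 features listed and 560 features with a count. The members were chosen by their having counts in these libraries, and with earlier results known, among them the Mir542 counts of the proliferating input set against those of the resting input, so the comparison of cell states in the input is described here by its values and not tested. For the same reason no test is given for Mir542 wherever an input library enters.

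The mice were Ago2HA/HA, with both copies of the gene encoding an AGO2 that carries the HA epitope, and all 8 libraries share this genotype. B cells were enriched from spleen by depleting cells that bear CD43, and the labels give neither age nor sex. The 4 groups of 2 libraries were the proliferating immunoprecipitate (IP) and the proliferating input, from cells activated in culture, and the resting IP and the resting input, from cells taken without activation. The sources used here name neither the activating agent nor its duration. The anti-HA antibody precipitated AGO2, and the submitters report that cells lacking the tag yielded no RNA to sequence, so the input serves as background for each IP. Whether replicates are different mice is not said, so the p-values measure the spread between these libraries, which may be technical. Library totals ran from 213418 to 1681148 counts, and B lymphocyte miRNAs fixed as markers (Mir150, Mir155, Mir342, Mir146 and Mir29a) took 30.7% to 54.0% of the counts of every library. Levels are in CPM (a library's count scaled to a common total) with TMM, a factor per library that evens out differences in composition. In such bulk samples fewer cells of a type and less RNA per cell cannot be told apart.

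miRNAs of one cluster can be cut from a shared primary transcript by DROSHA and DICER, and one strand of each hairpin is then loaded into an Argonaute protein. Bases 2 to 8 of the mature strand, the seed, pair with target messages. The mature miR-322 (the counterpart of human miR-424) and miR-503 are known from mouse muscle precursor cells to hold back the cell cycle, with Cdc25a, a phosphatase that drives cell division, among the targets.

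The mature strands of the 4 genes are shown because the seed decides which other miRNAs they resemble. Sequences are from RefSeq (GRCm38.p6), read 5′ to 3′ with the seed in capitals, and all 4 members matched, with 8 mature strands.
mmu-miR-322-5p: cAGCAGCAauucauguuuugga
mmu-miR-322-3p: aAACAUGAagcgcugcaacac
mmu-miR-503-5p: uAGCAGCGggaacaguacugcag
mmu-miR-503-3p: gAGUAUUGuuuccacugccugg
mmu-miR-351-5p: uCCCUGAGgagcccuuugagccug
mmu-miR-351-3p: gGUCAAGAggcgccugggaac
mmu-miR-542-5p: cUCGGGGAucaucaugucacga
mmu-miR-542-3p: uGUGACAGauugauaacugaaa

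The seed of miR-322-5p is that of the miR-15 family, a set of miRNAs known for restraining cyclins. For comparison, 3 relatives with the same seed are shown.
mmu-miR-15a-5p: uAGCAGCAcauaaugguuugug
mmu-miR-16-5p: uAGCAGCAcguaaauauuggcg
mmu-miR-195a-5p: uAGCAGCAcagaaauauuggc
The 7 bases of this seed occur in 11 RefSeq miRNA genes, of which 6 had enough counts to be tested here, Mir322 included. Outside the seed the strands differ: without gaps, miR-322-5p and miR-15a-5p share 15 of 22 bases, and miR-322-5p and miR-16-5p share 12. The strand miR-503-5p shares 6 bases with miR-322-5p from base 2 on and departs from it at the last base of the seed, and no other gene in the table carries the seed of miR-503-5p.

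The seed of miR-351-5p is that of the miR-125 family, which is shown for the same purpose.
mmu-miR-125a-5p: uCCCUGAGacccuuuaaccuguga
mmu-miR-125b-5p: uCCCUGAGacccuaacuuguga
Over the 24 bases of miR-351-5p and miR-125a-5p, 10 are the same without gaps. The seed of miR-542-3p occurs in no other gene of the table. Each feature of the count tables spans a whole hairpin, so which of its strands was sequenced is not known, and groupings by seed describe the genes, not the strand counted.

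In mm10 all the members are on the minus strand of chromosome X. Mir322 spans 53054255 to 53054349, Mir503 spans 53053984 to 53054054, Mir351 spans 53053255 to 53053353 and Mir542 spans 53049403 to 53049487. The first 3 lie inside the span of the long noncoding RNA gene C430049B03Rik in the RefSeq gene table, while Mir542 lies 3767 nt beyond Mir351 and inside no annotated gene. Another 3 hairpins follow, Mir450-2, Mir450-1 and Mir450b, and the 7 hairpins together cover 6353 nt. No feature of the count tables overlaps any of the 7, so none of their reads is open to confusion with a feature on the opposite strand.

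**Figure D1:**
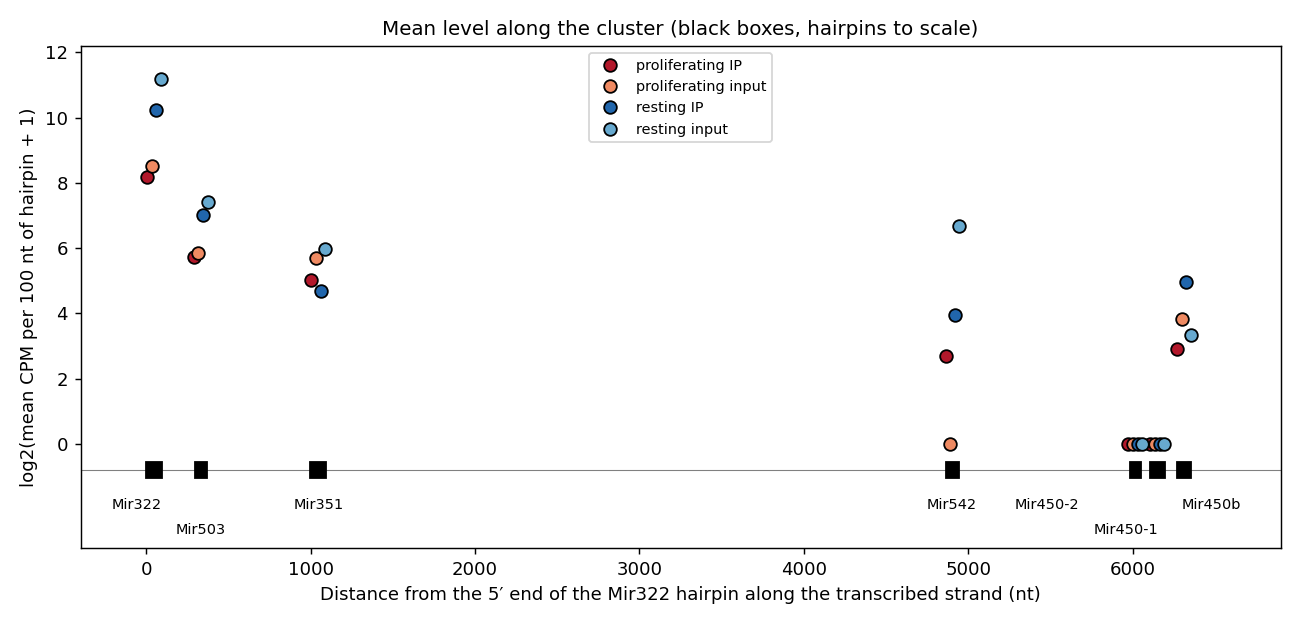
Mean level of each hairpin of the cluster in the 4 groups, as log2 of CPM per 100 nt of hairpin plus 1, against its distance in nt from the 5′ end of the Mir322 hairpin. Mir322 is the highest in every group, Mir542 is at 0 in the proliferating input, and Mir450-1 and Mir450-2 are at 0 throughout.

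Mir322 was the leading gene of the cluster and its level was set apart by cell state. Its deposited counts were 225 and 261 in the proliferating IPs, 113 and 107 in the proliferating inputs, 1721 and 745 in the resting IPs, and 681 and 1016 in the resting inputs. As CPM this was 329 and 221 in the proliferating IPs, 319 and 375 in the proliferating inputs, 1284 and 997 in the resting IPs, and 1906 and 2495 in the resting inputs. The resting libraries were thus all above the proliferating ones, and the resting inputs were above the resting IPs. The libraries of the proliferating IP and input overlapped. Between the IPs of the cell states, 74.9% of all 219 features tested did not overlap, with 32.9% lower in proliferating cells. Nothing is therefore read from the lack of overlap. Among all features it ranked 75 to 79 in the proliferating inputs and 30 to 33 in the resting inputs.

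Among AGO2-bound miRNAs, Mir322 averaged 275 ± 76.2 CPM in the proliferating IP and 1141 ± 203 CPM in the resting IP (SD, n = 2 each). The log2 fold change of proliferating over resting was -2.06 (SE 0.33, edgeR's quasi-likelihood fit, p adjusted by Benjamini-Hochberg, adjusted p = 1.2e-06), a level 4.15 times as high in resting cells. This call held under all 16 alternative settings, with log2 fold changes from -2.68 to -1.79. Of all 219 features tested in this comparison 52.1% were called in either direction and 23.7% were called lower in proliferating cells, so that 1 member lower of 4 is a share near the background.

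Mir503 followed in the same direction with a smaller and less certain difference. Its counts were 15 and 62 in the proliferating IPs, 16 and 10 in the proliferating inputs, 155 and 51 in the resting IPs, and 38 and 55 in the resting inputs. Its CPM were 21.9 and 52.6 in the proliferating IPs and 45.2 and 35.1 in the proliferating inputs, against 116 and 68.3 in the resting IPs and 106 and 135 in the resting inputs. Both proliferating groups lay below both resting groups with no overlap, and within a cell state IP and input overlapped. Of all features tested, 74.9% did not overlap between the IPs and 32.9% were lower in proliferating cells, so nothing is read from this. In the IP the log2 fold change of proliferating over resting was -1.28 (SE 0.59, edgeR adjusted p = 0.066), which did not pass. The spread between the proliferating IP libraries was wide: without replicate 2 of that group the value was -2.06 (edgeR adjusted p = 0.030), and DESeq2 gave -1.43 (adjusted p = 0.043).

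Mir351 showed no clear difference by cell state, and whether it differs from its neighbours in this was not tested. Its counts were 24 and 32 in the proliferating IPs, 22 and 11 in the proliferating inputs, 26 and 22 in the resting IPs, and 15 and 33 in the resting inputs. The CPM were 35.1 and 27.1 in the proliferating IPs, 62.1 and 38.6 in the proliferating inputs, 19.4 and 29.4 in the resting IPs, and 42.0 and 81.0 in the resting inputs. The libraries of the cell states overlapped in the IP and in the input. In the IP the log2 fold change of proliferating over resting was 0.35 (SE 0.71, edgeR adjusted p = 0.69), and its sign turned with upper-quartile scaling and without replicate 1 of either IP group. Within each cell state both IP libraries were below both inputs, but neither difference passed (edgeR adjusted p = 0.16 in resting and 0.50 in proliferating cells). How many of all features show such an order between IP and input was not counted, so nothing is read from it.

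Mir542, whose miR-542-3p is known from human cells to repress survivin, an inhibitor of apoptosis, was found mostly in the resting input. Its counts were 4 and 4 in the proliferating IPs, 0 and 0 in the proliferating inputs, 26 and 4 in the resting IPs, and 21 and 46 in the resting inputs. Its CPM were 5.85 and 3.39 in the proliferating IPs, 19.4 and 5.35 in the resting IPs, and 58.8 and 113 in the resting inputs. Every resting input library was above every library of the other groups, and the IPs of the cell states overlapped below 20 CPM. How many of all features show this order was not counted, so nothing is read from it. Mir542 entered the tests only through the resting inputs. They were the only libraries in which it reached the required 17.0 CPM, which is taken on library totals without TMM. On that scale Mir322 and Mir503 reached the level in 8 libraries and Mir351 in 7. Between the IPs, whose libraries played no part in that choice, the log2 fold change of proliferating over resting was -1.497 (SE 1.001, edgeR adjusted p = 0.20), which did not pass. Without replicate 1 of the resting IP it was -0.34 (edgeR adjusted p = 0.86).

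**Figure D2:**
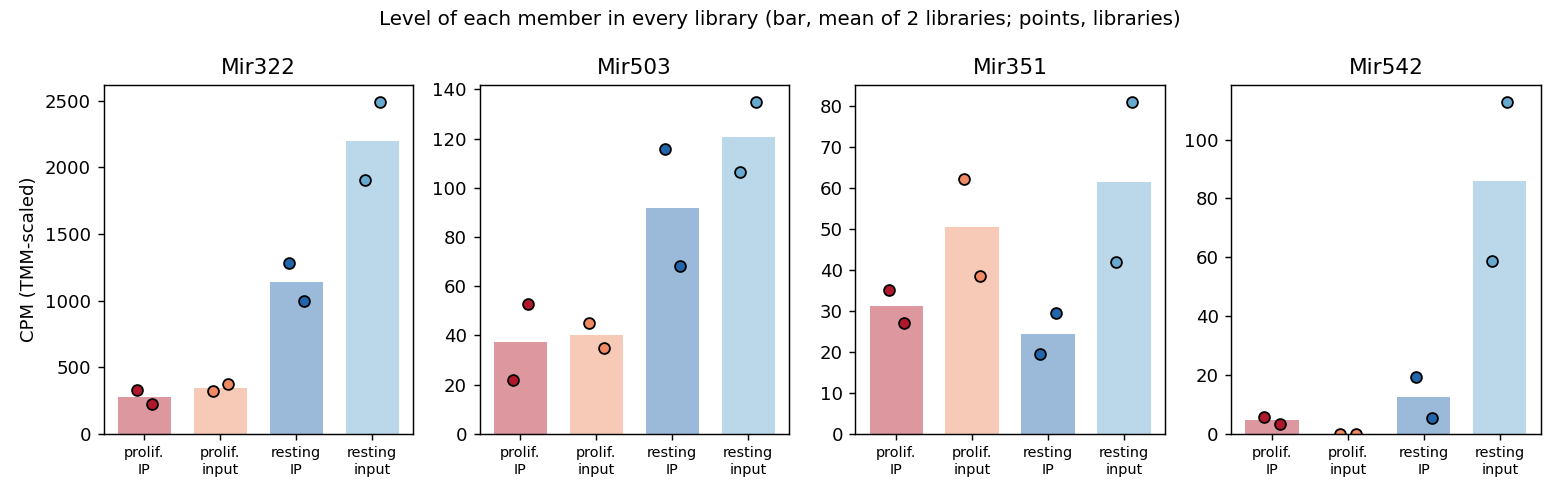
CPM of each member in every library (points) with the mean of the 2 libraries of a group (bars), from the proliferating IP on the left to the resting input on the right. Mir322 and Mir503 are lower in all proliferating than in all resting libraries. Between the IPs, 32.9% of all features tested were likewise lower in proliferating cells without overlap. Mir351 overlaps between the cell states, and Mir542 is highest in the resting inputs at 58.8 and 113 CPM.

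Before AGO2 was selected, the same comparison of states is a description, since it entered the choice of the genes. In the input Mir322 averaged 347 ± 39.9 CPM in proliferating and 2200 ± 416 CPM in resting cells, 6.34 times as high at rest. Mir503 averaged 40.1 ± 7.13 CPM in the proliferating input and 121 ± 20.3 CPM in the resting input, 3.01 times as high at rest. Mir351 averaged 50.3 ± 16.6 CPM in the proliferating input and 61.5 ± 27.6 CPM in the resting input, and its libraries overlapped. Mir542, at 0 counts in the proliferating input and 85.9 ± 38.3 CPM in the resting input, was at least 18.7-fold lower in the proliferating input, taking 3 counts over the group as the floor. Without replicate 1 of the proliferating input that bound was 8.33, because 3 counts in a single shallow library are a larger share. The groups did not overlap for 3 of the 4 members, all lower in proliferating cells. Of all 219 features tested the groups did not overlap for 78.5%, with 35.2% lower in proliferating cells, and 23.3% were called lower, so that the lack of overlap is common in this comparison and nothing is read from it.

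The levels of the 4 genes can be ordered by group. For Mir322 the order from high to low was resting input, resting IP, proliferating input and proliferating IP, with the last pair not apart beyond their spread. For Mir503 the order was the same, with neighbours within a cell state overlapping. For Mir351 it was resting input, proliferating input, proliferating IP and resting IP, with overlap between the inputs and between the IPs. For Mir542 the resting input was followed by the resting IP, the proliferating IP and the proliferating input, and the IPs overlapped. Set against one another per length, Mir322 had 365 CPM per 100 nt of hairpin in the proliferating input, Mir503 had 56.5, Mir351 had 50.8 and Mir542 had 0, although ligation and amplification can differ between sequences. In the resting input the order was Mir322 with 2316 CPM per 100 nt, Mir503 with 170, Mir542 with 101 and Mir351 with 62.1.

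The makeup of the cluster's counts does not depend on any scaling factor. Mir322 held 84.0% (95% exact Clopper-Pearson interval 79.0 to 88.1) and 72.7% (67.8 to 77.2) of the counts of the 4 members in the proliferating IPs and 74.8% (67.1 to 81.5) and 83.6% (76.0 to 89.5) in the proliferating inputs. It held 89.3% (87.8 to 90.6) and 90.6% (88.4 to 92.5) in the resting IPs and 90.2% (87.9 to 92.2) and 88.3% (86.4 to 90.1) in the resting inputs. Every proliferating library was below every resting one. For Mir351 it was the reverse, with 8.96% and 8.91% of the members' counts in the proliferating IPs and 14.6% and 8.59% in the proliferating inputs, against 1.35% and 2.68% in the resting IPs and 1.99% and 2.87% in the resting inputs. The lowest of the proliferating intervals for Mir351 began at 4.37% and the highest of the resting ones ended at 4.02%. These intervals cover counting error only, and the difference between cell states in these shares was not tested. The shares of a library add up to a whole, so a lower share of Mir322 goes with a higher share of the others together, though not of each. In the inputs the Mir542 share was lower in proliferating cells as well. The CPM of Mir351 overlapped between the cell states.

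**Figure D3:**
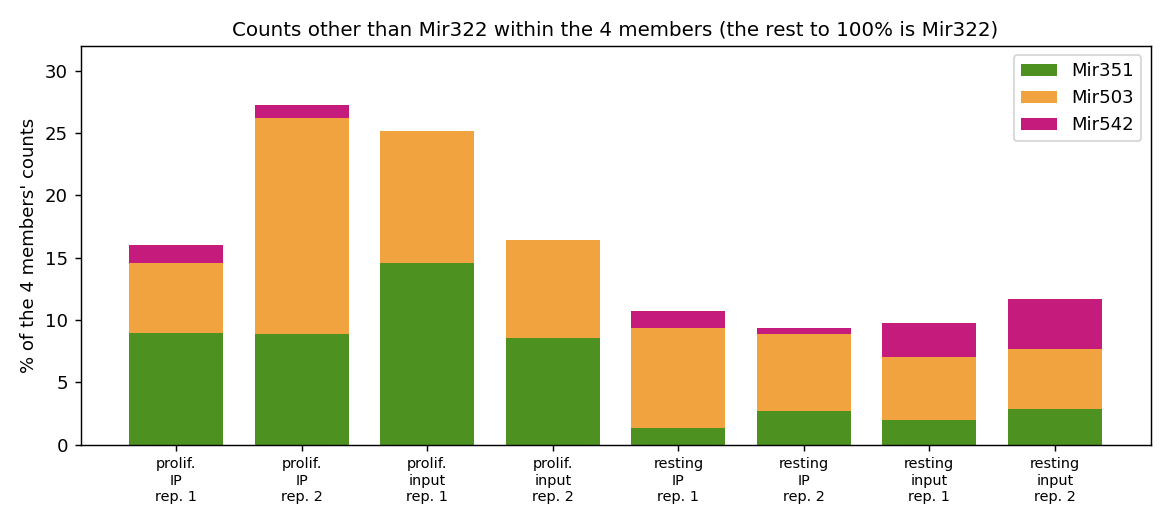
Share of the 4 members' counts held by Mir351, Mir503 and Mir542 in each library, in percent, the rest being Mir322. The Mir351 share is 8.59% to 14.6% in the 4 proliferating libraries and 1.35% to 2.87% in the 4 resting libraries, while its CPM overlapped between the cell states.

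The comparison of IP with input asks which of the genes are over- or under-represented with AGO2, and it was tested for Mir322, Mir503 and Mir351. These tests, and those of the difference between states below, use the inputs whose comparison entered the choice of the genes. They are therefore not independent of that choice. In resting cells Mir322 averaged 1141 ± 203 CPM in the IP and 2200 ± 416 CPM in the input. The log2 fold change was -0.95 (SE 0.32, edgeR adjusted p = 0.020), the only call among these 3, and 15.5% of all features tested were called lower in the resting IP. This call was lost without replicate 2 of the resting input (-0.74, edgeR adjusted p = 0.23), with upper-quartile scaling (-0.81, adjusted p = 0.089), with a minimum count of 20 (-0.80, adjusted p = 0.051) and with only these 2 groups in the fit (-0.71, adjusted p = 0.081).

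The other members differed less clearly between resting IP and input. Mir503 was at 92.0 ± 33.5 CPM in the resting IP and 121 ± 20.3 CPM in the resting input (log2 fold change -0.39, SE 0.58, edgeR adjusted p = 0.64). Mir351 was at 24.4 ± 7.10 CPM in the resting IP and 61.5 ± 27.6 CPM in the resting input (log2 fold change -1.35, SE 0.72, edgeR adjusted p = 0.16). Mir542 averaged 12.4 ± 9.93 CPM in the resting IP and 85.9 ± 38.3 CPM in the resting input, which is 6.94 times as high. Its fitted log2 value of -2.72, given with no test, was -4.02 without replicate 1 of the resting IP, the library that held 26 of the 30 counts of that group.

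In proliferating cells no tested member passed between IP and input. Mir322 averaged 275 ± 76.2 CPM in the IP and 347 ± 39.9 CPM in the input (log2 fold change -0.34, SE 0.33, edgeR adjusted p = 0.50). Mir503 stood at 37.3 ± 21.7 CPM in the IP and 40.1 ± 7.13 CPM in the input (log2 fold change -0.09, SE 0.64, edgeR adjusted p = 0.94). Mir351 stood at 31.1 ± 5.64 CPM in the IP and 50.3 ± 16.6 CPM in the input (log2 fold change -0.71, SE 0.72, edgeR adjusted p = 0.50). By edgeR 0 of these 3 were called, 0 had an unadjusted p under 0.05 and DESeq2 called 0, where 26.9% of all features tested were called by edgeR in either direction. Scaled by library totals the Mir322 value was -0.95 (edgeR adjusted p = 0.026), and the median of all features was then at -0.50 against 0.11 with TMM. No fold is given for Mir542, because its 8 counts in the proliferating IPs came to 4.29 CPM, below the floor of 4.69 CPM over the proliferating inputs.

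The difference between the states in this enrichment was tested directly, as proliferating minus resting. It was 0.61 for Mir322 (SE 0.46, edgeR adjusted p = 0.38), 0.30 for Mir503 (SE 0.87, adjusted p = 0.85) and 0.64 for Mir351 (SE 1.01, adjusted p = 0.74) on the log2 scale. None of the 3 was called by edgeR or DESeq2, 0 had an unadjusted p under 0.05, and 17.4% of all features tested were called. A call for Mir322 between IP and input in one state and none in the other therefore does not show a difference between the states.

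**Figure D4:**
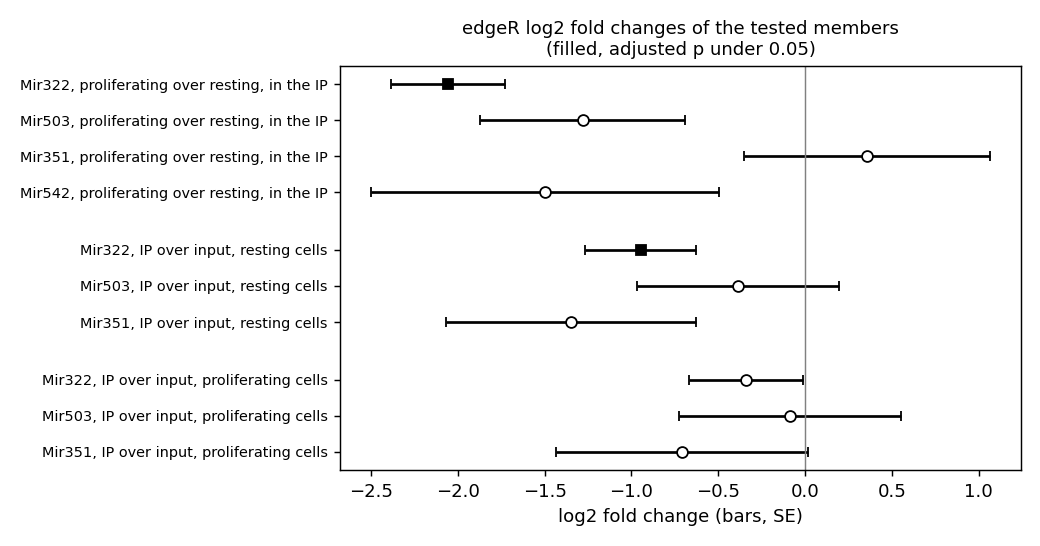
edgeR log2 fold changes with SE of the members in the comparisons that were tested, filled where the adjusted p is under 0.05. Mir322 is past the threshold between the IPs of the cell states (-2.06) and between IP and input in resting cells (-0.95).

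The Mir450 hairpins at the far end of the cluster were barely seen. Mir450-1 and Mir450-2 had 0 counts in all 8 libraries. Their 5p strand is the same molecule, shown with that of Mir450b, which departs from it inside the seed.
mmu-miR-450a-5p: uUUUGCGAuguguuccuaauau
mmu-miR-450b-5p: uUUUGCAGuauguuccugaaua
A read of miR-450a-5p fits both hairpins, and the sources used here do not say how reads with several matches were counted, so these zeros say nothing about its level. Mir450b had 5 and 4 counts in the proliferating IPs, 4 and 3 in the proliferating inputs, 37 and 16 in the resting IPs, and 1 and 5 in the resting inputs. Its highest libraries were thus the resting IPs, at 27.6 and 21.4 CPM, whereas Mir542 was highest in the resting inputs. Mir450b reached the required 17.0 CPM only in the resting IPs, so it entered the fit through the group where it was highest, and no test is given for it.

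The genes that share the miR-15 seed are described by their calls between the IPs, with nothing read from so small a count. Of 9 names listed for this seed 8 were in the tables and 5 had counts, all 5 of them tested (Mir497b, in the list by name, does not carry the seed and had no count). Between the IPs of the cell states 1 was higher in proliferating cells, 1 was lower and 3 did not pass, where 52.1% of all features tested were called in either direction and 23.7% were called lower. The median log2 fold change of the 5 was -0.02 against 0.21 over all features. Mir16-1 fell (-1.78, SE 0.31, edgeR adjusted p = 5.9e-06), as Mir322 did, while Mir195a rose (1.74, SE 0.55, edgeR adjusted p = 0.0075). Mir15b, the most abundant of them, was at 0.28 (edgeR adjusted p = 0.32), and it was higher in the IP than in the input in proliferating (1.74, adjusted p = 8.9e-07) and in resting cells (1.10, adjusted p = 4.6e-04). Mir16-1 and Mir16-2 make the same miR-16-5p, so their single values are uncertain.

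Within the counts of the features listed for this seed, Mir322 took a share that also needs no scaling factor. In the proliferating IPs it stood at 0.801% (exact 95% interval 0.700 to 0.912) and 0.746% (0.659 to 0.842) and at 2.62% (2.16 to 3.14) and 3.08% (2.53 to 3.70) in the proliferating inputs. It was 3.46% (3.30 to 3.63) and 3.75% (3.49 to 4.02) in the resting IPs and 10.7% (9.96 to 11.5) and 12.7% (11.98 to 13.4) in the resting inputs. In both states the IP libraries were below the inputs, and in both fractions the proliferating libraries were below the resting ones. Most of the other counts in that pool were of Mir15b, so the share moves with Mir15b as well as with Mir322, and reads of miR-16-5p may be missing from it.

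**Figure D5:**
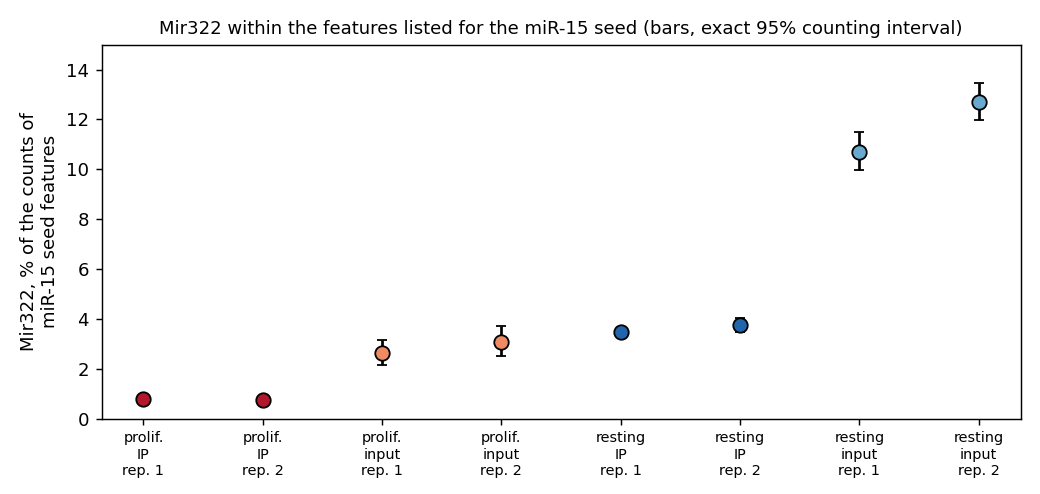
Share of Mir322 in the counts of the features listed for the miR-15 seed, in percent, for each library with its exact 95% counting interval. The proliferating IPs are at 0.801% and 0.746% and the resting inputs at 10.7% and 12.7%, with the proliferating inputs and resting IPs between them.

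Of the 3 genes with the seed of miR-351-5p listed here, Mir125a was the only one tested. It was at 93.6 ± 26.9 CPM in the proliferating IP and 63.3 ± 29.6 CPM in the proliferating input, and at 128 ± 57.7 CPM in the resting IP and 456 ± 131 CPM in the resting input. Unlike Mir351 it was called for the difference in enrichment between states (2.40, SE 0.66, edgeR adjusted p = 0.0089), and it fell in the resting IP relative to the resting input (-1.82, adjusted p = 0.0013). Whether Mir125a and Mir351 differ from each other in this was not tested. Mir125b-1 and Mir125b-2 make the same miR-125b-5p, and how reads with several matches were counted is not known, so their counts leave its level uncertain.

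By pattern over the 8 libraries, taking the root mean square difference of log2 CPM after centring each feature on its own mean, the feature nearest to Mir322 was Mir140 (0.38), followed by Mir203 (0.43) and Mir30d (0.45), where the median over all features was 1.55. Mir503 was in place 19 from Mir322 (0.69), Mir542 in place 35 (0.93) and Mir351 in place 72 (1.25). The features nearest to Mir322 thus lay outside the cluster. Counting error widens this distance for features with few counts, so these places need not mean that the other members differ in pattern. Seen from Mir542, Mir322 was in place 5 and Mir503 in place 22. The features nearest to Mir503 were Mir107 (0.41), Mir194-2 (0.43) and Mir140 (0.47). Mir29b-1 (0.45) was nearest to Mir351 and Mir455 (0.80) to Mir542, followed by Mir326 (0.83), which likewise had no count in the proliferating input.

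Other X-linked features were called between the IPs about as often as features at large. Of 23 tested features of chromosome X outside the cluster, 9 were higher in the proliferating than in the resting IP, 3 were lower and 11 did not pass, where 52.1% of all features tested were called in either direction. Their median log2 fold change was 0.88 against 0.21 over all features.

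Shares of most marker lists of other cell types also differed by cell state. These shares are of library totals without TMM, and the part of such miRNAs in these results was not tested. Mir223, the myeloid marker, took 0.0695% to 0.106% of the counts in the proliferating IPs and 0.221% to 0.339% in the proliferating inputs, against 1.45% to 2.94% in the resting IPs and 1.153% to 2.86% in the resting inputs. The erythroid list was at most 0.00234% in proliferating and 0.0235% in resting libraries, of which 1 of 2 members, Mir144, was in the tables by name. The epithelial list of 5 was at 0.0380% to 0.0441% in the proliferating IPs and 0.0586% to 0.0759% in the proliferating inputs, against 0.197% to 0.209% in the resting IPs and 0.109% to 0.129% in the resting inputs. Its member Mir200c averaged 216 CPM in the proliferating and 215 CPM in the resting input, while the others had lower means in the proliferating input. Mir126a, the endothelial marker, went the other way, at 0.0889% to 0.176% in the proliferating IPs and 0.0626% to 0.0820% in the proliferating inputs, against 0.00613% to 0.0147% in the resting IPs and 0.0173% to 0.0253% in the resting inputs. The stromal and muscle list of 12 was near 0, at 0.00151% to 0.00233% in the proliferating IPs, 0.000469% to 0.00217% in the proliferating inputs, 0.00634% to 0.00892% in the resting IPs and 0.00155% to 0.00780% in the resting inputs. Between 8 and 10 of its members were at 0 counts in a group, among them Mir214, Mir206 and the Mir1a and Mir133a genes in every group. Mir1a, Mir133a and Mir199a are each listed as more than 1 gene. How reads with several matches were counted is not known, so zeros of such genes say nothing about their level. The 4 cluster members together took 0.0261% to 0.0337% in the proliferating IPs and 0.0547% to 0.05998% in the proliferating inputs, against 0.104% to 0.115% in the resting IPs and 0.210% to 0.297% in the resting inputs.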

How the data were processed

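Small RNA libraries were prepared with a QIAseq miRNA kit, per the labels' protocols. The authors aligned reads with STAR 2.7.9a to mm10 and used SAMtools 1.15, per the submitters' processing notes. The deposited values are raw counts per miRNA gene from deduplicated alignments, per the file headers, in 1 table for resting and 1 for proliferating cells, so that table and cell state coincide. How reads were counted, with or without strand, and what became of reads with several matches is not given in the sources used here.

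Features were named by exact coordinates against RefSeq genes of GRCm38.p6 (1179 of 2202 matched 1 gene). edgeR 4.0.16 in R 4.3.3 kept 219 features (filterByExpr, minimum count 10, that is 17.0 CPM of the library total in at least 2 libraries). The fit had 4 groups over 8 libraries with TMM factors. It left 4 residual and 36.6 prior degrees of freedom. The 5 contrasts had 2-sided tests, each adjusted by Benjamini-Hochberg over its features. SE is the absolute log2 fold change over the root of F. The steps were tried on data simulated with the same spread setting for every feature. Real spread differs between features, so this does not show how the tests do for members with few counts. DESeq2 1.42.0, other scalings, filters, sets of groups and libraries were alternatives. Shares are of all counts of a library, with exact 95% intervals (SciPy 1.17.1), and floors are 3 counts (1.78 to 14.1 CPM of a library). The named features were the members, their cluster, seed and marker lists and the 3 features nearest in pattern. Members and lists were chosen with earlier results of these data known.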

Additional observations from a re-analysis of the deposited data

Results flagged for a closer look

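Mir542 stood out because the difference between IP and input had opposite signs in the cell states, although in proliferating cells its direction could not be measured at this depth. IP minus input in mean CPM was 4.62 in proliferating cells, where both IPs held 4 counts and both inputs 0, and -73.5 in resting cells, where both IPs were below both inputs. The difference was not tested, since the inputs entered the choice of the gene. The 8 counts of the proliferating IPs came to 4.29 CPM, below the floor of 4.69 CPM that 3 counts over the inputs set.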

How the results depend on the processing

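Depth limits the smaller members: Mir503, Mir351 and Mir542 had from 0 to 155 counts in a library, and with 2 libraries a group most of the spread estimate is shared over features. Every member passed the filter, so no ratio for dropped members was computed. The Mir322 fall in the IP kept its call under all 16 alternatives. Between resting IP and input, Mir322 gave -0.81 with upper-quartile factors, -0.80 with a minimum count of 20, -0.71 with only the groups compared and from -1.21 to -0.74 with a library left out. Between proliferating IP and input it gave -0.95 with library totals. Mir503 between the IPs was past the threshold with upper-quartile factors (-1.99), DESeq2 size factors in edgeR (-1.42), DESeq2 (-1.43) and a minimum count of 20 (-1.37), and ran from -2.06 to -0.92 with a library left out. Between proliferating IP and input Mir503 ran from -0.87 to 0.19 with a library left out. Its difference between states turned to -0.035 with library totals and -0.027 with upper-quartile factors, and ran from -0.49 to 0.85 with a library left out. The difference between states kept its sign with a library left out for Mir322, from 0.090 to 0.91, and for Mir351, from 0.085 (without resting input replicate 2) to 1.25 (without resting IP replicate 2). Mir351 between the IPs turned to -0.29 with upper-quartile factors and ran from -0.083 to 0.77 with a library left out. Mir542 between the IPs ran from -2.08 to -0.34 with a library left out, between resting IP and input from -4.02 to -2.18 with a library left out, and its bound in the input from 8.33 to 24.1. In the input, with library totals and upper-quartile factors, Mir322 gave -2.32 and -3.05 and Mir503 gave -1.24 and -1.96, while Mir351 turned to 0.051 with library totals and ran from -0.68 to 0.27 with a library left out. The causes were not tested. These scalings moved the median of all features in the input to 0.40 and -0.31, against 0.04 with TMM.

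Of all features, 59 were called between proliferating IP and input, from 31 (without proliferating IP replicate 2) to 65 with a library left out, and 35 without proliferating input replicate 1. For the difference of enrichment 38 were called, against 22 with upper-quartile factors, 25 with DESeq2 size factors in edgeR and 25 with a minimum count of 20. With a library left out this count ran from 15 to 49, and was 15, 21, 20 and 24 without proliferating input replicate 1 or 2, proliferating IP replicate 1 and resting input replicate 1. Between the IPs 62 were higher and 52 lower, or 38 and 75 with upper-quartile factors. Between resting IP and input 29 were higher and 34 lower, or 33 and 23 with upper-quartile factors. The 3 features nearest to Mir322 kept 2 with library totals, and those of the other members kept 3.

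The labels share numbers between groups without saying that they mark an animal. For want of such a statement the numbers were not taken as pairs. Deviations of same-numbered libraries correlated with r from -0.12 to 0.18 across features. This cannot show whether an animal was shared, since each group gives only the difference of its 2 libraries. With the replicate block, Mir322 was at -2.06 between the IPs (edgeR adjusted p = 5.7e-08) and at -0.96 between resting IP and input (adjusted p = 0.022), with 109 features called between the IPs, and the block changed no call of a member.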
